A study of Mus musculus with 8 samples.

Results

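The genes described here are the mouse zinc finger protein genes, taken as every protein-coding gene of GENCODE release M21 whose symbol begins with Zfp. They number 397 of 21938 protein-coding genes outside the mitochondrial genome, and the question asked of each was whether its promoter lay in open chromatin in SN4741 cells and whether that differed between culture conditions. SN4741 is reported to be a clonal line derived from embryonic mouse substantia nigra, and it is labelled as wild-type neural precursor cells. It was immortalised with a temperature-sensitive T antigen driven by a tyrosine hydroxylase promoter, and the study describes its karyotype as unstable and polyploid. ATAC-seq, a method that uses transposase insertion to tag accessible DNA, was run on 4 libraries from cells kept at 37 °C in 10% serum and on 4 libraries from cells held for 48 h at 39 °C in 0.5% serum. All groups share the T antigen transgene, and each comparison of temperature is also a comparison of serum. Each library came from 50000 cells, and the sources used here do not say whether the replicates were separate cultures, so p-values measure the spread between these libraries, which may be technical.

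Zinc finger proteins of this symbol are a mixed group. The largest share are KRAB zinc finger proteins, which bind DNA through arrays of C2H2 fingers and recruit the corepressor TRIM28 and histone H3K9 methylation to retroelements and imprinted loci. Their genes arose by tandem duplication and sit in clusters of related copies. Other genes with the same symbol prefix encode RNA-binding CCCH proteins, cofactors of GATA factors, and developmental regulators of neurons and fat cells.

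A promoter was counted as open in a library when a deposited peak overlapped the 1 kb on either side of any annotated transcription start site (TSS) of the gene. The 397 genes had 1628 distinct TSSs, and for 48 of them the window also held a TSS of another coding gene, so a peak there cannot be assigned to either gene alone. The libraries held 49.8 to 169 M fragments (M for mega) and 54845 to 92013 peaks, and all 4 lists at 37 °C were longer than those at 39 °C. Of 13 lineage and precursor markers looked at against the label, 8 had a promoter peak in all 8 libraries, beside 59.9% of all coding genes, and an open promoter does not show that a gene is expressed or name the cell type. Th, Nr4a2, Pitx3, Foxa2, En1 and En2, all markers of the midbrain dopaminergic lineage, and the neural precursor markers Nes and Sox2 were these 8. Lmx1b was open in all 4 lists at 37 °C and in 2 at 39 °C, Slc6a3 in 4 libraries at 37 °C and 1 at 39 °C, and Lmx1a in 1 library. Slc18a2 and Ddc, which dopamine neurons need for vesicular loading and for dopamine synthesis, had none in any library. In single-cell RNA-seq the study found few or no reads for Th, Nr4a2, Pitx3, Foxa2, Lmx1b and Slc6a3 at either temperature. Its RT-qPCR did detect Th, Nr4a2, Foxa2 and Slc6a3.

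Zfp promoters were mostly open in every library or in none. A promoter peak was found in all 8 libraries for 343 Zfp genes, or 86.4% (Wilson 95% interval 82.7% to 89.4%), beside 59.9% of all coding genes. It was found in no library for 47 Zfp genes, or 11.8% (9.02% to 15.4%), beside 31.3% of all coding genes. Only 7 Zfp genes, or 1.76%, lay between, beside 8.75% of all coding genes. Among genes open in at least 1 library, 98.0% of Zfp genes and 87.0% of the other coding genes were open in all 8. In the smaller families described below, this share was 94.6% for other zinc finger genes, 88.9% for Forkhead genes and 100% for ribosomal protein genes. The pattern is thus not particular to Zfp genes. The 343 genes used 339 distinct peaks. The intervals cover counting error only.

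**Figure D1:**
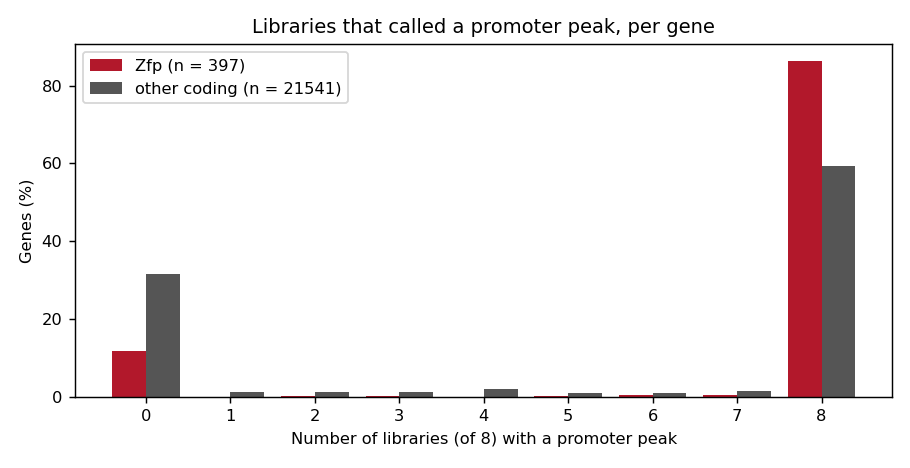
Bars give the percentage of genes (vertical axis) with a promoter peak in each number of libraries from 0 to 8 (horizontal axis), for 397 Zfp genes and 21541 other coding genes. The Zfp bars stand at 0 libraries (11.8%) and at 8 libraries (86.4%), with 1.76% between them.

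In each library the Zfp share was above that of the other coding genes. A promoter peak was found for 88.2%, 87.9%, 87.7% and 87.9% of Zfp genes in replicates 1 to 4 at 37 °C and for 87.7%, 87.2%, 87.4% and 86.4% at 39 °C. These values span less than 2 percentage points, and the lowest is that of the shortest list. The other 21541 coding genes ranged from 60.0% to 67.4%. The difference between Zfp and other coding genes was 23.6 ± 2.07 percentage points (SD, n = 8 libraries) and was positive in all 8 (exact sign-flip permutation test over libraries, two-sided, p = 0.00781, the smallest that 8 libraries allow). All libraries see the same genes, so this test covers the spread between libraries and not the choice of genes.

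Set against smaller gene families, Zfp promoters stood between ribosomal protein genes and other transcription factor families. The 79 ribosomal protein genes had a promoter peak in 98.7% of cases in every library. The 88 other zinc finger genes of the Zbtb, Zscan, Zkscan and Klf families had one in 79.5% to 81.8%, which was 6.57 ± 0.711 percentage points below Zfp (n = 8, exact sign-flip p = 0.00781). The 44 Forkhead genes, which encode developmental transcription factors, had one in 72.7% to 81.8%, which was 10.5 ± 3.70 percentage points below Zfp (exact sign-flip p = 0.00781). These tests do not cover the small number of genes. For the share open in all 8 libraries, the Wilson 95% interval was 70% to 86.7% for the other zinc finger genes and 58.2% to 83.7% for Forkhead genes. Both overlap the 82.7% to 89.4% of Zfp, while that of ribosomal protein genes, 93.2% to 99.8%, does not.

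**Figure D2:**
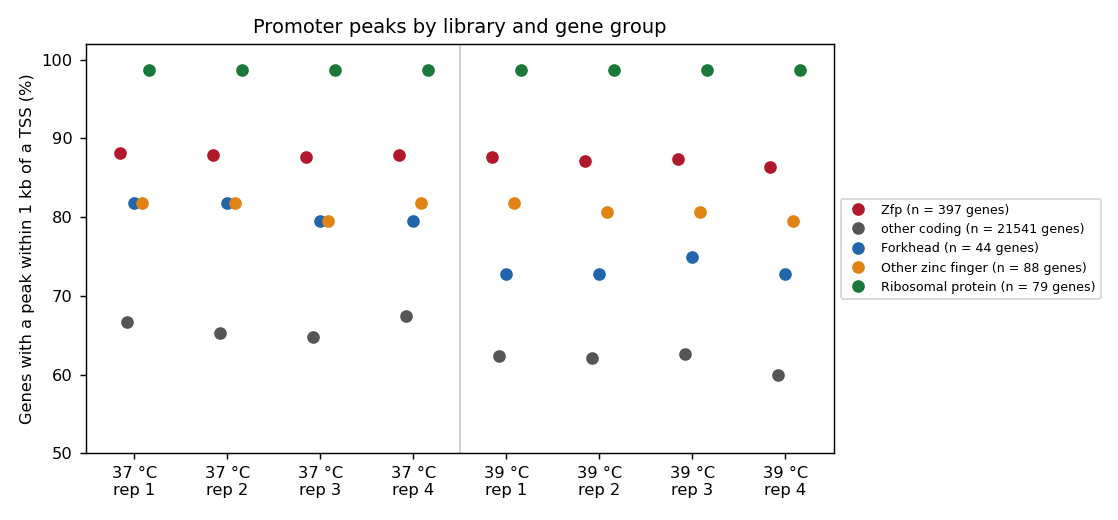
Each point is the percentage of genes in a group with a peak within 1 kb of a TSS (vertical axis, starting at 50%) in a library (horizontal axis, 4 at 37 °C and 4 at 39 °C). Zfp points lie between 86.4% and 88.2%, while the other coding genes lie between 64.7% and 67.4% at 37 °C and between 60.0% and 62.6% at 39 °C.

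The Zfp share was 87.9 ± 0.206% (SD, n = 4) at 37 °C and 87.2 ± 0.544% (n = 4) at 39 °C, a difference of -0.756 percentage points (exact permutation test, two-sided, p = 0.0571). Solitary Zfp genes, those outside the genomic clusters described below, fell from 90.1 ± 0.263% to 89.1 ± 0.263% (exact permutation p = 0.0286), and clustered ones differed by -0.483 percentage points (exact permutation p = 0.714). The difference between these 2 changes, 0.57, did not pass (exact permutation p = 0.2). The share of the other coding genes fell from 66.0 ± 1.23% to 61.8 ± 1.19% (p = 0.0286, the smallest that 4 against 4 libraries allow by exact permutation), and that of Forkhead genes fell from 80.7 ± 1.31% to 73.3 ± 1.14% (exact permutation p = 0.0286). The other zinc finger families stood at 81.2 ± 1.14% and 80.7 ± 0.928% (exact permutation p = 0.657) and the ribosomal protein genes at 98.7% throughout, and the gap between Zfp and the other zinc finger genes differed between conditions by -0.187 percentage points (exact permutation p = 0.857). The gap between Zfp and other coding genes was 21.9 ± 1.11 percentage points at 37 °C and 25.4 ± 0.695 at 39 °C, which did not overlap (difference 3.52, exact permutation p = 0.0286). When every list was cut to as many peaks as the shortest this difference was 1.10, and with summits required in the window it was 2.25 (exact permutation p = 0.0286 for both). Among the 6 libraries under 100 M fragments the same difference was 2.63 (exact permutation p = 0.0667, the smallest that 2 against 4 allow).

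No Zfp promoter was open in all 4 libraries of either condition and in none of the other. Over all coding genes 1.46% were open only at 37 °C by this rule and 0.0137% only at 39 °C. Fisher's exact test per gene cannot go below p = 0.0286 with 4 against 4 libraries, and after adjustment over 21938 genes no p was under 0.05 (smallest adjusted p = 1). The unadjusted p was under 0.05 for 324 coding genes, or 1.48%, and for 0 Zfp genes, and these are the 321 genes open in 4 of 4 libraries at 37 °C and 0 of 4 at 39 °C and the 3 of the reverse. A peak in more libraries at 37 °C than at 39 °C was found for 6 Zfp genes, or 1.51%, beside 7.97% of all coding genes, and the reverse for 0 Zfp genes, beside 0.470% of all coding genes.

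The 7 Zfp genes open in some libraries, all named because they are few and after their values were seen, had low peaks. Their rank is given here as the within-list percentile, the share of peaks in that library's list whose −log10 q was at or below that of the promoter peak. Zfp941 had a peak in 4 libraries at 37 °C, at percentiles of 34.2, 32.0, 34.3 and 33.3, and in replicate 1 alone at 39 °C, at 6.24. Zfp819 had one in 4 libraries at 37 °C, at percentiles of 22.4 to 31.3, and in replicates 1 and 3 at 39 °C, at 6.24 and 9.04. Zfp612 was open in 3 libraries and Zfp618 in 2 libraries, all at 37 °C. Zfp991 and Zfp983 were open in 4 libraries at 37 °C and 3 at 39 °C, missing in replicate 4, which had the shortest list. Zfp354b was open in 3 libraries of each condition. Without replicate 1 at 39 °C Zfp941 would be open only at 37 °C, and without replicate 2 at 37 °C so would Zfp612.

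Of the genes in the role lists described below, Zfp42 (Rex1, a marker of pluripotent stem cells), Zfp488, an oligodendrocyte factor, and Zfp804a, expressed in neurons, had no promoter peak in any library. On the X chromosome Zfp711, Zfp92 and the placental gene Zfp36l3 had none. Of all 47 genes with no promoter peak, 14 lay in clusters on chromosome 4, and 33 lay elsewhere. Zfp474, named after its values were seen, had no promoter peak but had a peak over the last 1 kb of the gene in all 8 libraries.

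Zfp genes with known roles were counted by lists of such genes, to be read beside the 86.4% of all Zfp genes open in all 8 libraries. All 10 listed general promoter and chromatin factors were open in all 8 libraries, among them Zfp143, a promoter-binding activator, at a mean percentile of 94.5, Zfp384 at 96.8 and Zfp687, a partner of Zfp592 and Zfp532, at 99.2. Both GATA cofactors were open, Zfpm1 (FOG1) at 99.5 and Zfpm2 (FOG2) at 92.5. Of the 4 CCCH genes, whose products bind AU-rich elements and promote mRNA decay, 3 were open in all 8, namely Zfp36l2 at 99.9, Zfp36 at 88.6 and Zfp36l1 at 85.9. Of 6 genes for imprint and retroelement silencing 5 were open, namely Zfp57 at 84.5 and Zfp445 at 75.6, which protect imprints, Zfp568 at 92.7, Zfp809 at 91.4 and Zfp932 at 83.5. Of 5 pluripotency genes 4 were open, with Zfp322a at 95.1, Zfp281 at 92.6, Zfp462 at 78.7 and Zfp296 at 44.7. The window of Zfp296 also holds a TSS of another coding gene, so its peak cannot be assigned to Zfp296 alone. Of the 9 Zfp genes on the X chromosome 6 were open, at 54.6 to 83.4, and the 3 named above were not.

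Of 10 genes for neural development 8 were open in all 8 libraries, a share near that of all Zfp genes. Zfp703 and Zfp503, a pair of related corepressors, stood at 98.9 and 95.4, and Zfp24, needed for myelination, stood at 97.5. Zfp365 was at 95 and Zfp335 at 93.2. Zfp423, a cofactor in cerebellar and fat cell development, was at 87.7. Zfp521, its close relative, had percentiles of 57.4, 58.7, 50.1 and 62.0 at 37 °C and 35.7, 41.5, 40.4 and 10.1 at 39 °C. Zfp536, a repressor of neuronal differentiation, had 54.6, 56.1, 46.0 and 61.8 at 37 °C and 46.5, 41.5, 43.8 and 22.8 at 39 °C, with replicate 1 at 39 °C just above replicate 3 at 37 °C. Neither passed the test of rank among promoters given below (limma adjusted p = 0.233 for Zfp521 and 0.521 for Zfp536). The 4 genes for fat cell fate, Zfp423, Zfp521, Zfp516 and Zfp467, were all open.

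Across the 343 genes open in all 8 libraries the mean percentile ran from 21.3 to 99.9. The highest were Zfp36l2 at 99.9, Zfp706 at 99.6, Zfp91, an E3 ubiquitin ligase gene, at 99.6, Zfpm1 at 99.5 and Zfp622 at 99.3. The window of Zfp91 also holds the TSS of another coding gene. The lowest were Zfp709 at 21.3, Zfp993 at 27.7, Zfp750, a regulator of epidermal differentiation, at 29.8, Zfp456 at 32.2 and Zfp951 at 36.3. Zfp709 had percentiles of 26.4, 38.3, 24.8 and 34.2 at 37 °C and 14.6, 12.4, 11.4 and 8.50 at 39 °C. All 4 values at 37 °C were above those at 39 °C, but its mean rank among open coding promoters, defined below, was 0.549 at 37 °C and 0.616 at 39 °C (limma adjusted p = 0.914).

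To show what such promoters look like, the 150 bases before the TSS are printed for the highest ranked, Zfp36l2, and the lowest ranked, Zfp709, as read from the RefSeq copy of the mm10 assembly (GRCm38) 5′ to 3′ on the gene's own strand. Capitals mark any of 10 words that were searched. Zfp36l2 lies at chr17:84187948-84188097 on the minus strand, and its median summit lay 260 bp upstream of the TSS. Zfp709 lies at chr8:71881869-71882018 on the plus strand, with its summit 19 bp downstream of the TSS. The first has 20 CpG dinucleotides and a GC content of 74.0%, the second 10 and 60.0%.
Zfp36l2: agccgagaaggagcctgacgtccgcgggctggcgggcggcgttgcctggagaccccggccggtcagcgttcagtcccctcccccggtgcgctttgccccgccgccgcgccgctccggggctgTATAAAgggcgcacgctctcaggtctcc
Zfp709: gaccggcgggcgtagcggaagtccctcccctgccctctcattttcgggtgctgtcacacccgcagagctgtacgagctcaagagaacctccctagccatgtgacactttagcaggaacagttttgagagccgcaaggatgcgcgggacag

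Although more Zfp promoters were open, their peaks ranked lower than those of other open promoters. The median percentile of the 343 Zfp promoters was 87.8 ± 1.09 (SD, n = 4) at 37 °C and 84.2 ± 1.82 (n = 4) at 39 °C, and that of the 12802 other coding promoters open in all 8 libraries was 91.4 ± 0.650 and 88.8 ± 1.10. Zfp promoters were lower in all 8 libraries, with a mean difference of -4.12 ± 0.732 points (n = 8, exact sign-flip p = 0.00781) and a range of -5.57 to -3.10. The difference of -3.54 points in the Zfp median between 39 °C and 37 °C had an exact permutation p of 0.0286, but it was 0.227 points, in the other direction (exact permutation p = 0.629), when the same number of peaks was taken from each list. It also missed the threshold without replicate 4 at 37 °C (-3.07) or replicate 4 at 39 °C (-2.76, exact permutation p = 0.0571 for both).

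Zfp promoter peaks were also narrower and nearer to the TSS. Their median width was 1777 ± 156 bp at 37 °C and 1615 ± 124 bp at 39 °C, beside 2452 ± 283 and 2063 ± 155 bp for other open coding promoters, a difference of -561 bp over 8 libraries (exact sign-flip p = 0.00781). The median distance from summit to nearest TSS was 44.8 ± 5.12 and 46.5 ± 2.52 bp for Zfp, beside 70 ± 3.74 and 70.2 ± 1.26 bp. Of the summits, 87.9 ± 0.523% and 88.9 ± 0.742% lay within 200 bp of a TSS, beside 76.7 ± 1.47% and 77.8 ± 0.608% (exact sign-flip p = 0.00781 for both measures).

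The 3′ ends of these genes were examined because the arrays of zinc fingers are usually encoded in the last exon. The stretch examined ended at the annotated end of the gene and was not limited to coding sequence. Its values are therefore not those of the finger arrays themselves. Over the last 1 kb of the gene, in the 344 Zfp genes where that stretch lay at least 2 kb from every coding TSS, a peak was found for 5.67 ± 0.872% at 37 °C and 2.91 ± 0.531% at 39 °C (n = 4 each, exact permutation p = 0.0286). The other 14829 coding genes gave 13.4 ± 2.45% and 7.58 ± 1.17%. Zfp 3′ ends were thus below the others in all 8 libraries, with a difference of -6.20 ± 2.01 percentage points (n = 8, exact sign-flip p = 0.00781). The genes named next were chosen after their values were seen. Zfp771, Zfp703, Zfp385a and Zfp36l2 had such a peak in all 8 libraries beside an open promoter. Zfp341, Zfp687, Zfp664, Zfp707 and Zfp598 had it in 4 of 4 libraries at 37 °C and 0 of 4 at 39 °C. These 5 are 1.45% of the Zfp genes examined, beside 1.88% of all coding genes examined.

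Zfp genes were then divided by position. Genes whose 5′ ends lay within 250 kb of the next Zfp gene in runs of 3 or more formed 31 clusters of 207 genes, and the remaining 190 were called solitary. Chromosome 13 held the largest cluster, with 23 genes from 67061170 to 67813740 (mm10), of which 22 were open in all 8 libraries and Zfp459 in none. A cluster of 18 genes on chromosome 17, from 21383748 to 22424222, had 17 open in all 8 and Zfp983 in some. All 15 genes of the chromosome 7 cluster from 29768552 to 30169750 were open, as were all 8 of that from 127233061 to 127615797 and all 7 of the chromosome 6 cluster from 47830867 to 48086593. The second cluster on chromosome 17, from 32788287 to 33629090, had 12 of 13 open, with Zfp811 in none. On chromosome 7 the cluster from 24081924 had 10 of 12 open, with Zfp114 and Zfp575 in none, and the cluster from 27689340 had 7 of 8, with Zfp626 in none.

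Closed promoters were common in a few clusters. On chromosome 11, from 50827724 to 51059257, 2 of 6 genes were open in all 8 libraries, Zfp354b was open in some, and Zfp879, Zfp454 and Zfp2 were open in none. The 3 clusters on chromosome 4 lie next to each other, from 145510759 to 147848366, and hold 18 genes. Of these, Zfp993, Zfp984 and Zfp933 were open in all 8 libraries, Zfp991 in 7, and the other 14 in none. The first of the 3, from Zfp990 to Zfp600, had 0 of 5 open. Elsewhere 171 of 189 clustered genes, or 90.5%, were open in all 8 libraries, beside 169 of 190 solitary genes, or 88.9%.

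**Figure D3:**
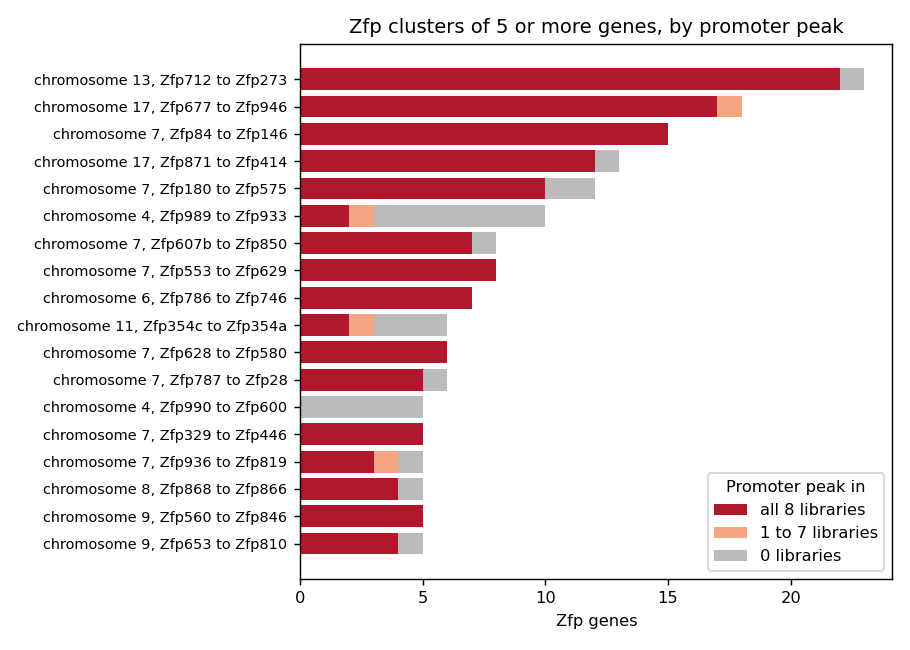
Each bar is a cluster of 5 or more Zfp genes, named by its chromosome and its first and last gene, and its length is the number of genes. Colours give the genes with a promoter peak in all 8, in 1 to 7 and in 0 libraries. The cluster from Zfp712 to Zfp273 on chromosome 13 has 22 of 23 open in all 8, and the chromosome 4 cluster from Zfp990 to Zfp600 has 0 of 5.

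The chromosome 4 clusters therefore set the sign of the comparison between clustered and solitary genes. Clustered genes had a promoter peak less often, with a difference of -3.98 ± 0.653 percentage points (n = 8, exact sign-flip p = 0.00781). Without the chromosome 4 clusters, an alternative chosen after seeing the data, they had one more often, by 2.13 percentage points (exact sign-flip p = 0.00781), and with clusters defined by gaps of 100 kb the difference was 3.97, and by gaps of 500 kb -1.13 (p = 0.00781 by exact sign-flip for both). Every library scores the same genes, so these p-values cover the spread between libraries and not the choice of genes. The sign changed with the definition of a cluster, and no general difference between clustered and solitary genes is read from it. Open clustered promoters ranked lower than open solitary ones in all 8 libraries, with a difference of -6.64 ± 1.36 points in the median percentile (exact sign-flip p = 0.00781), and no alternative tried reversed that.

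The open genes of the chromosome 4 clusters had peaks of modest rank. Zfp933 had percentiles of 71.7, 65.8, 64.6 and 72.0 at 37 °C and 59.4, 59.4, 60.1 and 62.9 at 39 °C. Zfp984 had 52.8, 41.6, 40.05 and 55.8 at 37 °C and 23.2, 33.4, 35.8 and 21.4 at 39 °C. Zfp993 had 44.3, 37.6, 26.2 and 45.4 at 37 °C and 15.6, 13.4, 22.2 and 16.7 at 39 °C. Ranked among open coding promoters, none of the 3 passed the test between conditions (limma adjusted p = 0.314, 0.636 and 0.815).

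Some promoters of the chromosome 4 clusters are near copies of each other, which bears on whether reads can be placed there. Of all 50-base words within 500 bp of the principal TSS, a median of 65.5% occurred elsewhere in the genome for the 18 genes, beside a median of 0 for all Zfp genes, and in 10 of the 18 it was over 50%. How reads that map to several places were treated was not given in the sources used here, and its part in the missing peaks was not tested. Among the open genes 100% of words were repeated for Zfp993, 27.0% for Zfp984 and 0 for Zfp933, and for Zfp991, open in 7 libraries, 87.3% were. Among the 14 closed genes the share ran from 18.7% for Zfp985 to 94.3% for Zfp986. Over all Zfp genes 21 of 31 promoters with over 50% of words repeated were open in all 8 libraries (67.7%), beside 143 of 1207 in other coding genes (11.8%).

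To show their sequence, the 150 bases before the principal TSS are given for a pair of closed genes, Zfp534 (chr4:147702554-147702703, minus strand) and Zfp981 (chr4:146501877-146502026, plus strand), and for the open genes Zfp993 (chr4:146610811-146610960, plus strand) and Zfp933 (chr4:147848367-147848516, minus strand). Capitals mark the searched words, here ACTACAA and CCAAT, the word bound by NF-Y, which appears as its reverse complement where the opposite strand carries it. These genes were chosen after their values were seen.
Zfp534: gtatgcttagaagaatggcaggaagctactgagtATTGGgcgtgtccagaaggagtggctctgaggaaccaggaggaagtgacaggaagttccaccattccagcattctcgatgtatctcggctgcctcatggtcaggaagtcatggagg
Zfp981: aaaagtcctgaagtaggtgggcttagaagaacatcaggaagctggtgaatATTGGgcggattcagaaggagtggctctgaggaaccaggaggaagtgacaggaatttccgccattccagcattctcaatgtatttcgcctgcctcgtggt
Zfp993: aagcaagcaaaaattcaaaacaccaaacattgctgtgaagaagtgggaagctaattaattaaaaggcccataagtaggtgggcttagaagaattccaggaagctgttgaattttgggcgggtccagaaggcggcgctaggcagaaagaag
Zfp933: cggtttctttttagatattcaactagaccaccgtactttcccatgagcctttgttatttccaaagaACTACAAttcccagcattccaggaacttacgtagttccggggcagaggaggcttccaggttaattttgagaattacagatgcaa

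The printed runs of Zfp534 and Zfp981 were 71.7% identical after alignment, and that of Zfp993 was 52.6% and 49.4% identical to them. Over the 300 bases from 250 before to 50 after the TSS, the 91 pairs of closed genes in these clusters had a median identity of 68.5% (45.1% to 98.0%), and the 42 pairs of an open and a closed gene had 52.4% (45.0% to 75.2%). The open genes differed among themselves in this. Against the 14 closed genes Zfp984 had a median identity of 67.9%, close to that of the closed pairs, Zfp993 had 57.4% and Zfp933 50.0%. The printed Zfp534 and Zfp981 are among the closed genes less like Zfp993, which was 73.8% identical to Zfp990 and 71.4% to Zfp980. The word CCAAT occurred in 83.3% of the 18 promoters, beside 45.3% of all Zfp and 38.6% of all coding promoters. It was present in each closed gene of these clusters and in the open Zfp984. The open Zfp993 and Zfp933 lacked it, as did Zfp991, open in 7 libraries. A link between the word and the missing peaks was not tested.

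Promoter sequence was compared with that of other genes over the same window of 300 bases, with CpG content given as the observed over expected ratio (CpG o/e). The median was 0.640 in Zfp promoters and 0.554 in other coding promoters. Among genes open in all 8 libraries it was 0.672 for Zfp and 0.759 for others, and among closed genes it was 0.378 and 0.182. Clustered Zfp promoters had a median of 0.540, solitary ones 0.738 and those of the chromosome 4 clusters 0.343.

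The difference between Zfp and other promoters was wider in the CpG-poor class. With a CpG o/e under 0.6, 140 of 180 Zfp promoters (77.8%) were open in all 8 libraries, beside 3728 of 11492 other coding promoters (32.4%). With a CpG o/e of at least 0.6 it was 203 of 217 (93.5%) beside 9074 of 10049 (90.3%). By library, the CpG-poor Zfp share was 79.4%, 79.4%, 78.9% and 79.4% at 37 °C and 79.4%, 78.9%, 78.9% and 77.8% at 39 °C, so the conditions overlapped. The difference from other CpG-poor promoters averaged 40.2 percentage points and ranged from 35.4 to 44.5 over 8 libraries (exact sign-flip p = 0.00781). In the CpG-rich class the difference was 1.99 percentage points, from 0.772 to 3.02 (exact sign-flip p = 0.00781). The CpG-rich Zfp share was 95.4%, 94.9%, 94.9% and 94.9% at 37 °C and 94.5%, 94.0%, 94.5% and 93.5% at 39 °C, with no overlap (exact permutation p = 0.0286). Other CpG-rich coding promoters also fell, from 93.7 ± 0.369% to 91.5 ± 0.693% (exact permutation p = 0.0286). Other CpG-poor coding promoters fell from 41.9 ± 2% to 35.8 ± 1.64% (exact permutation p = 0.0286). This division was chosen after seeing the data. Promoters within a class were not matched for CpG o/e, whose lower quartile over all promoters was 0.426 for Zfp and 0.216 for other coding genes. The gap in the CpG-poor class is therefore not one at equal CpG content.

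**Figure D4:**
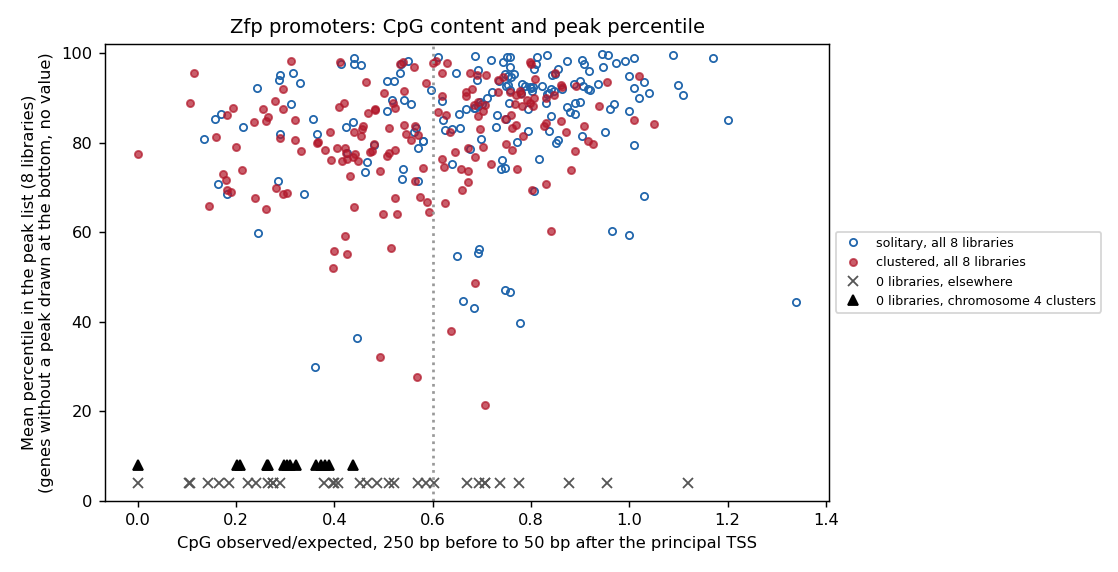
Each point is a Zfp gene, placed by the CpG o/e of its promoter (horizontal axis) and, where it was open in all 8 libraries, by its mean percentile over 8 libraries (vertical axis). Genes with no peak have no percentile and are drawn as crosses, or as triangles for the chromosome 4 clusters, in rows at the bottom. The dotted line at 0.6 divides the classes, and 140 open promoters lie to its left.

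Of the 10 words searched on both strands, 4 are given first because their ratio to all coding promoters was farthest from equal. CCGGAAG, the core of ETS factor sites, occurred in 23.2% of Zfp and 11.2% of all coding promoters. It occurred in 24.5% of open Zfp and 16.7% of other open coding promoters. GCGCATGCG, the NRF1 core, occurred in 5.04% of Zfp and 2.52% of all coding promoters. ACTACAA, part of the site of Zfp143 itself, occurred in 6.80% and 3.74%. TATAAA, the TATA box word, occurred in 6.55% of Zfp and 12.5% of all coding promoters, but among open promoters it occurred in 7.29% of Zfp and 6.91% of the others. Of the closed promoters it occurred in 0 of 47 Zfp and 23.2% of the others.

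The other words differed less or were rare. CCAAT occurred in 45.3% of Zfp and 38.6% of all coding promoters. CCCCGCCCC, a site for SP and KLF factors, occurred in 10.8% and 15.4%. CACGTG, the E-box, occurred in 6.80% and 7.76%, AAGATGGCG, the YY1 word, in 2.27% and 1.85%, and CTCGCGAG in 0.756% and 1.21%. TGACGTCA, the cyclic AMP response element bound by CREB and ATF factors, occurred in 3.78% and 2.51%. A match says only that the letters are present.

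TGACGTCA was unevenly placed among Zfp genes. Of the 15 Zfp promoters that held it, 7 lay in the largest cluster on chromosome 13, where 7 of 23 promoters held it. All 15 were open in all 8 libraries, beside 86.4% of all Zfp promoters and 428 of the 535 other coding promoters that held it. All 7 copies lay upstream of the principal TSS, at 9 to 56 bases from it. The site in each is printed with 11 bases on either side, with the word in capitals, because Zfp874a and Zfp87, with the smallest limma p in each direction, are among these genes. The first 6 are on the minus strand and the last is on the plus strand, at chr13:67306450-67306479, chr13:67332570-67332599, chr13:67360606-67360635, chr13:67451616-67451645, chr13:67484247-67484276, chr13:67526181-67526210 and chr13:67779685-67779714. The cluster was singled out after these values were seen.
Zfp457: cccatcgcctgTGACGTCAtcagaaagagc
Zfp595: ccctaccacgtTGACGTCAccaaaaggctg
Zfp953: ccggatgcctgTGACGTCAtcagaaggctg
Zfp874a: ctgcagcacggTGACGTCAcaggtctgcac
Zfp874b: ctgtagcacggTGACGTCAcagatcggtac
Zfp87: cgtgccctctgTGACGTCAcaagcagccgc
Zfp493: tcttgcccataTGACGTCAcaaggagccag

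Differences between conditions in the height order of promoters were tested with limma. Each coding promoter open in all 8 libraries was ranked from 0 to 100 among those 13145 promoters by −log10 q within its library, so that the rank does not depend on the length of the list. Of the 343 Zfp promoters 29 ranked higher at 39 °C (limma with Benjamini-Hochberg adjustment over all 13145, adjusted p under 0.05), or 8.45%, beside 10.0% of all coding promoters. A lower rank at 39 °C was found for 12, or 3.50%, beside 8.94% of all coding promoters. The median difference was 0.62 rank points for Zfp and 0.40 for all coding promoters, and 98 Zfp promoters, or 28.6%, had an unadjusted p under 0.05, beside 33.9% of all coding promoters. By percentile in the whole list, which moves with list length, 0 ranked higher and 226, or 65.9%, lower, beside 0.578% and 59.9% of all coding promoters. All calls together were 41, and 16 without replicate 4 at 37 °C, 22 without replicate 1 at 39 °C, and 26 without replicate 2 at 37 °C, replicate 2 at 39 °C or replicate 4 at 39 °C. Leaving out each library in turn kept 14 of the 29 higher calls in all 8 fits and 1 of the 12 lower calls, Zfp87.

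**Figure D5:**
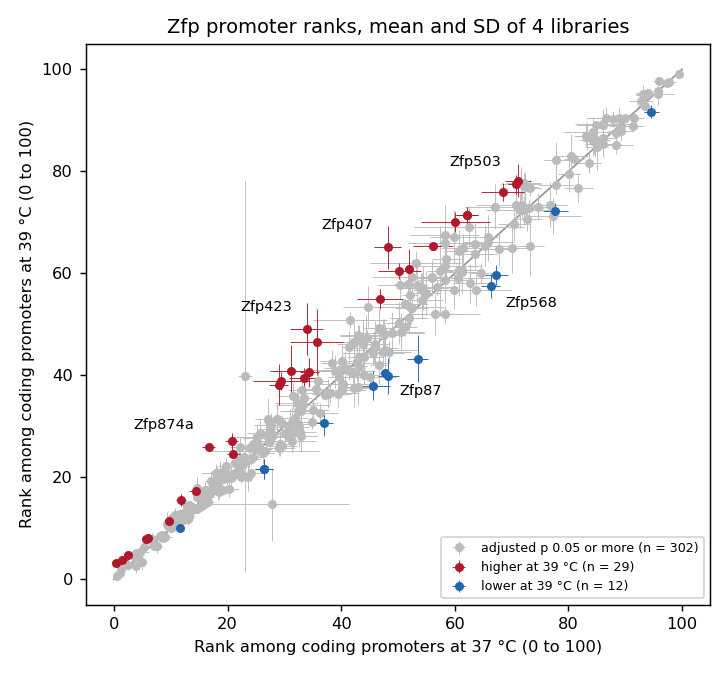
Each point is a Zfp promoter, placed by its mean rank among 13145 coding promoters at 37 °C (horizontal axis) and 39 °C (vertical axis), with bars of 1 SD over 4 libraries and a line where both are equal. Colours mark the 29 promoters that ranked higher and the 12 that ranked lower at 39 °C. Zfp407 rose from 48.2 to 65.1 and Zfp568 fell from 66.3 to 57.6.

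Of the open genes in the chromosome 13 cluster only Zfp874a, Zfp874b and Zfp87 passed, and they did not all move in the same direction. Zfp874a ranked at 17.3, 16.0, 15.5 and 18 at 37 °C and at 25.4, 26.0, 26.9 and 25.5 at 39 °C. The groups did not overlap, and the difference was 9.25 ± 0.815 rank points (SE, limma adjusted p = 0.000119). Zfp874b, the adjacent copy, ranked at 21.0, 19.1, 21.6 and 21.0 at 37 °C and at 26.4, 27.2, 29.3 and 25.4 at 39 °C, a difference of 6.42 ± 1.04 (limma adjusted p = 0.00326). Zfp87, the next gene that holds the word, ranked at 46.6, 48.5, 48.2 and 47.3 at 37 °C and lower, at 39.5, 40.6, 40.1 and 41.2, at 39 °C, a difference of -7.30 ± 1.42 (limma adjusted p = 0.00804). Zfp58, which lies between Zfp874b and Zfp87, had mean ranks of 24.2 at 37 °C and 23.5 at 39 °C (limma adjusted p = 0.578).

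The promoter windows of Zfp874a and Zfp874b were 70.1% identical, and those of Zfp87 and the pair 53.2% and 52.2%. For both copies 6.09% of 50-base words near the TSS recurred elsewhere in the genome, and 0 for Zfp87. The window of Zfp87 also holds a TSS of another coding gene. The other 4 genes with TGACGTCA, printed above, did not pass the test, with mean ranks of 17.7 and 19.3 for Zfp457 at 37 °C and 39 °C, 15.6 and 16.2 for Zfp595, 18.2 and 20.9 for Zfp953, and 19.2 and 17.5 for Zfp493 (limma adjusted p from 0.0936 to 0.586).

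Of the 8 open genes for neural development 3, Zfp423, Zfp503 and Zfp365, ranked higher at 39 °C, and Zfp521, Zfp536, Zfp24, Zfp703 and Zfp335 did not pass. Over all promoters ranked, 10.0% of coding and 8.45% of Zfp promoters were called higher at 39 °C, and nothing particular to this list is read from its 3 calls. Zfp423 ranked at 32.3, 36.2, 36.5 and 30.7 at 37 °C and at 56.3, 48.7, 44.4 and 47.0 at 39 °C, with no overlap (difference 15.2 ± 2.63, limma adjusted p = 0.0045). Zfp407, on chromosome 18 and in none of the lists, ranked at 50.5, 45.1, 49.3 and 47.7 at 37 °C and at 59.1, 65.3, 68.0 and 68.0 at 39 °C (16.9 ± 2.50, limma adjusted p = 0.00202). Zfp503 ranked at 68.7 to 71.5 at 37 °C and 75.8 to 79.7 at 39 °C (limma adjusted p = 0.0158). The calls for Zfp423, Zfp407 and Zfp503 were kept when any library was left out. Zfp365, the CCCH gene Zfp36l1, the chromatin factor gene Zfp532 and the fat cell gene Zfp467 also passed (limma adjusted p = 0.0357, 0.0349, 0.02 and 0.0234), and each lost the call without at least 3 of the 8 libraries in turn, among them replicate 4 at 37 °C. The call for Zfp365 was kept in 1 of the 8 fits that each left out a library (limma adjusted p = 0.0198 to 0.0849).

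Of the 5 promoters with the lowest percentiles, Zfp709, Zfp993 and Zfp456 did not pass (limma adjusted p = 0.914, 0.815 and 0.13), and Zfp951 and Zfp750 did. Zfp951 moved from a mean of 1.38 to 3.79 (limma adjusted p = 0.0256), and it lost the call in 4 of the 8 fits that each left out a library. Zfp750 ranked at 0.259 to 0.544 at 37 °C and 2.13 to 3.90 at 39 °C (limma adjusted p = 0.00189). Its median summit lay 510 bp upstream of the TSS. Among other promoters of low rank, Zfp641 moved from a mean of 5.99 to 8.19, Zfp239 from 2.4 to 4.77 and Zfp551 from 11.8 to 15.6 (limma adjusted p = 0.00434, 0.00753 and 0.00795), and these 3 calls and that of Zfp750 were kept when any library was left out. Zfp646 and Zfp668, also named after their values were seen, share the peak that rose from 62.1 to 71.4 (limma adjusted p = 0.00917), so which of the 2 promoters it belongs to cannot be told.

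Of the promoters that ranked lower at 39 °C, Zfp568, which represses a placental transcript of Igf2, ranked at 65.1, 64.9, 68.7 and 66.5 at 37 °C and at 58.5, 54.3, 59.9 and 57.7 at 39 °C. The groups did not overlap (difference -8.72 ± 2.02, limma adjusted p = 0.0166), but without replicate 4 at 37 °C the adjusted p was 0.0508. Zfp697 moved from 53.5 to 43.3, Zfp251 from 48.3 to 39.9, Zfp382 from 37.0 to 30.6 and Zfp451, a SUMO ligase gene, from 67.3 to 59.6 (limma adjusted p = 0.0194, 0.0218, 0.0171 and 0.0251). Zfp934 and Zfp935 share a peak, which moved from 26.4 to 21.6 (limma adjusted p = 0.0245). Of the 12 lower calls only that of Zfp87 held without replicate 4 at 37 °C.

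The promoter of Zfp568 is printed as the 150 bases before its TSS, at chr7:29983805-29983954 on the plus strand, with CCGGAAG in capitals. It was chosen for the smallest limma p of the lower calls outside the chromosome 13 cluster, though Zfp697 fell by more rank points. Its median summit lay 147 bp upstream of the TSS.
Zfp568: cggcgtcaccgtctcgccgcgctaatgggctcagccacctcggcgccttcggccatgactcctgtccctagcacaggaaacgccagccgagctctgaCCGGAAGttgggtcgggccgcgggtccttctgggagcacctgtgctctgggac

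Ranks of a few promoters varied widely within a condition, and these were singled out after their values were seen. Zfp605 ranked at 22.0 to 24.9 at 37 °C and at 97.4 in replicate 1 at 39 °C, beside 19.8 to 21.6 in the other replicates, since in that library its window was reached by a peak whose summit lay outside the window. Zfp608 ranked at 39.5, 28.8, 8.72 and 34.6 at 37 °C and at 25.4, 10.7, 9.83 and 12.9 at 39 °C, and its groups overlapped (limma adjusted p = 0.154).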

How the data were processed

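The authors aligned paired reads to mm10 with Bowtie2 (2.4.1), removed duplicates and called peaks in each library with MACS3 (3.0.0a7), without a control or local background, at a q-value of 0.05. How multiply mapped reads were filtered was not given in the sources used here. The deposited lists give, per the file headers, a pileup signal, a fold enrichment ratio and −log10 p-values and q-values for each peak. The methods describe removal of peaks over blacklisted regions. In each of the 8 lists the highest peak number equals the count of peaks, so unless peaks were renumbered none seem to have been removed after calling, and any such peaks remain in the peak counts and percentiles used here. Depth was read as fragments after filtering.

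Each gene took the highest peak by −log10 q that overlapped its windows by at least 1 base. Library values were compared by exact permutation or sign-flip tests (Python 3.11.15) and promoter ranks with limma (3.58.1, trend). On simulated shifts of 10 rank points in 200 of 13145 genes, limma recovered 37.5%, with 3 false calls. The shifted genes were drawn from middle ranks, so the recovery does not cover promoters of very low or high rank. Noise was independent between genes, so the false calls do not cover effects shared within a library. Alternatives were a −log10 q of at least 5, equal numbers of peaks (54845), other windows, summits and cluster gaps, and omission of libraries and genes. Named genes were those of the role lists, the 5 highest and 5 lowest percentiles, the 8 smallest limma p in each direction, and genes of the clusters, and others are named as such. Members and lists were chosen with earlier results of these data known. Sequences with over 30 exonic bases were not printed beyond single sites.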

Additional observations from a re-analysis of the deposited data

Results flagged for a closer look

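Within 4 libraries of a condition, a library that stood apart from the other 3 was flagged by the ratio of its gap to the range in 8 of 136 groups of values, and chance flags about 1 in 20 groups. Replicate 4 at 39 °C, which has the shortest list, gave 3 of the 8: a median percentile of clustered Zfp promoters of 77.3 beside 80.9 to 81.5, Zfp275 at 75.7 beside 81.4 to 82.4, and Zfp300 at 56.8 beside 66.0 to 67.2. The share of clustered Zfp genes with a promoter peak was 85.5% in replicate 3 at 37 °C and 86.0% in the others. The share of solitary Zfp genes was 90.5% in replicate 1 at 37 °C beside 90.0%, and 89.5% in replicate 1 at 39 °C beside 88.9%. These shares differ by 1 gene. The percentile of Zfp143 was 94.6 in replicate 2 at 39 °C beside 93.4 to 93.6, and that of Zfp148 was 90.6 in replicate 3 at 37 °C beside 92.5 to 92.8.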

How the results depend on the processing

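Of the values recomputed under the alternatives, 215 kept their direction and their side of the threshold or moved little, and 41 did not. With equal numbers of peaks the temperature difference in the Zfp median percentile was 0.227, and that of clustered minus solitary shares, 0.57 as reported, was -1.23, and -0.418 with summits required in the window. Summits in the window gave 2.25, and equal numbers of peaks 1.10, for the temperature difference in the gap to other genes, 3.52 as reported, and summits gave -1.01 for the Zfp share at 39 °C minus 37 °C (exact permutation p = 0.0286) and 1 gene open at 37 °C only, Zfp316. Clustered minus solitary shares were 3.97 with gaps of 100 kb, -1.13 with gaps of 500 kb and 2.13 without the chromosome 4 clusters. Among the 6 libraries under 100 M fragments, the gap to other genes grew by 2.63 at 39 °C, the Zfp percentile difference was -2.71 (exact permutation p = 0.133), and limma called 25 promoters, 4 of them lower. Ranked in the whole peak list, limma called 226, with 0 higher and 226 lower at 39 °C, beside 59.9% of all coding promoters lower. The cause was not tested for any of these, other than that lists were shorter at 39 °C.

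Leaving out each library in turn gave -0.924 to -0.504 for the temperature difference in the Zfp share, -4.01 to -2.76 for that of the median percentile, 0.324 to 0.969 for that of clustered minus solitary shares, and 0 to 1 genes open in one condition only. Limma calls ranged from 16 to 44, with 15 to 29 higher and 1 to 15 lower, and replicate 4 at 37 °C gave the lowest. Without replicate 1 at 39 °C the Zfp share passed the threshold (-0.924), and without replicate 4 at 39 °C the clustered minus solitary difference did (0.969, exact permutation p = 0.0286 for both).

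Replicate numbers did not pair the libraries (correlation of deviations of same-numbered libraries 0.219, -0.134, 0.337 and -0.155). With the replicate block the differences stayed 3.52, -3.54, 23.6, -4.12, -3.98, -6.64, 40.2 and 1.99. Each had p = 0.125 by an exact sign-flip test over the pairs, the smallest that 4 pairs allow. Limma with the block called 31, with 24 higher and 7 lower. Lists of peaks limit what can be seen: a promoter without a peak was not called at this depth, which is not absence of accessibility.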
